A study of Mus musculus with 8 samples.

Results

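Axon guidance ligands and receptors were examined in the striatum of aged Huntington's disease knock-in mice and wild-type mice. The genes were taken by symbol: semaphorins (Sema), plexins (Plxna to Plxnd), neuropilins (Nrp), Eph receptors (Epha, Ephb), ephrins (Efna, Efnb), Slit, Robo, netrins (Ntn) and Unc5. A gene entered when the array had a probe set (a group of short probes for 1 transcript) assigned to it alone, and its brightest probe set on average stood for it. This gave 78 of 18193 genes. Of these, 67 belong to the guidance families named above. The symbols also took in 9 relatives (6 Slitrk genes, 2 netrin-G genes and Unc5cl) and 2 genes that share only the letters or the locus, Unc50, which encodes a Golgi protein, and Plxna4os1, an antisense transcript at Plxna4.

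CHL2 mice carry a stretch of 150 CAG repeats, taken from exon 1 of the human gene, in the mouse's own Htt gene, and the series names the mutants Q150/Q150, with the expanded repeat on both copies. Because the repeat sits in the gene itself, no transgene promoter or Cre line limits it to a cell type. Striatal RNA from 4 CHL2 mutants and 4 wild-type mice was hybridised to Affymetrix Mouse Genome 430 2.0 arrays, 1 array for each mouse. All mice were C57BL/6 X CBA F1 hybrids of 22 months. The mutants 141, 153 and 154 and the wild-type mouse 161 were female, and the mutant 191 and the wild-type mice 170, 180 and 200 were male. Genotype and sex therefore overlap in part, and sex was a term in the fit.

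Guidance cues steer growing axons during development and stay active in the adult brain, where they act on spines, synapses, myelin and vessels. Semaphorins signal through plexins, with neuropilins as co-receptors for most of the secreted class 3 members. Slits bind Robo receptors, netrins bind Dcc and Unc5 receptors, and ephrins bind Eph receptors, with signals running in both directions because the ephrins sit on the cell surface. In the striatum these systems help to set the borders between compartments and to sort inputs onto medium spiny neurons. These projection neurons make up most of the neurons of the striatum.

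The array values are on a log2 scale, ran from 2.60 to 14.5, and had a median between 4.95 and 4.98 on each array. Correlations over all probe sets were 0.989 to 0.996 within a genotype and 0.983 to 0.991 between genotypes. Htt, the gene that carries the repeat, was 7.86 ± 0.07 (SD, n = 4) in wild-type mice and 7.28 ± 0.16 (SD, n = 4) in mutants, a fall of log2 -0.67 (SE 0.09, adjusted p = 0.00101). The library of wild-type mouse 170 stood apart in the controls for RNA integrity: its Gapdh 3' minus 5' difference was 1.37 on the log2 scale, against 0.321 to 0.431 in the other 7 mice. Without mouse 170 the call was lost for Sema3g, Sema6b, Epha8 and Slitrk6. Then 10 guidance genes were higher and 6 lower (20.5%, against 11.8% of all genes). A value under 5 (log2 of 32) is called near background below, and 13 of the 78 genes had all 8 values there: Sema3d, Sema3g, Epha2, Epha3, Ephb4, Efna1, Efna4, Ntn3, Ntn5, Robo3, Slitrk6, Unc5cl and Plxna4os1.

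Among the 78 guidance genes, 11 rose and 9 fell in mutants (limma, Benjamini-Hochberg adjusted p under 0.05 over all 18193 genes). The background was 6.4% of all genes higher and 6.01% lower, or 12.4% in either direction, and the guidance genes stood at 14.1%, 11.5% and 25.6%. Brighter genes passed more often in general: of genes with at least 1 value above 5, 18.1% of 11944 passed, and 17 of 65 guidance genes (26.2%) did. The median log2 change was -0.04 over the guidance genes and 0.01 over all genes, with 30 guidance genes above 0 and 48 below. In 22 of the 78 (28.2%) the 4 mutant values and the 4 wild-type values did not overlap, against 20.7% of all genes. Among genes with at least 1 value above 5 the shares were alike, 29.2% of 65 guidance genes and 29.1% of 11944. Of the 20 that passed, 18 had groups that did not overlap, and Sema3g and Sema4d overlapped. Only Nrp1, Ntn3, Ntn4 and Robo4 did not pass and yet had groups that did not overlap. Whole striatum was measured, so fewer cells of a type and less RNA per cell cannot be told apart.

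**Figure D1:**
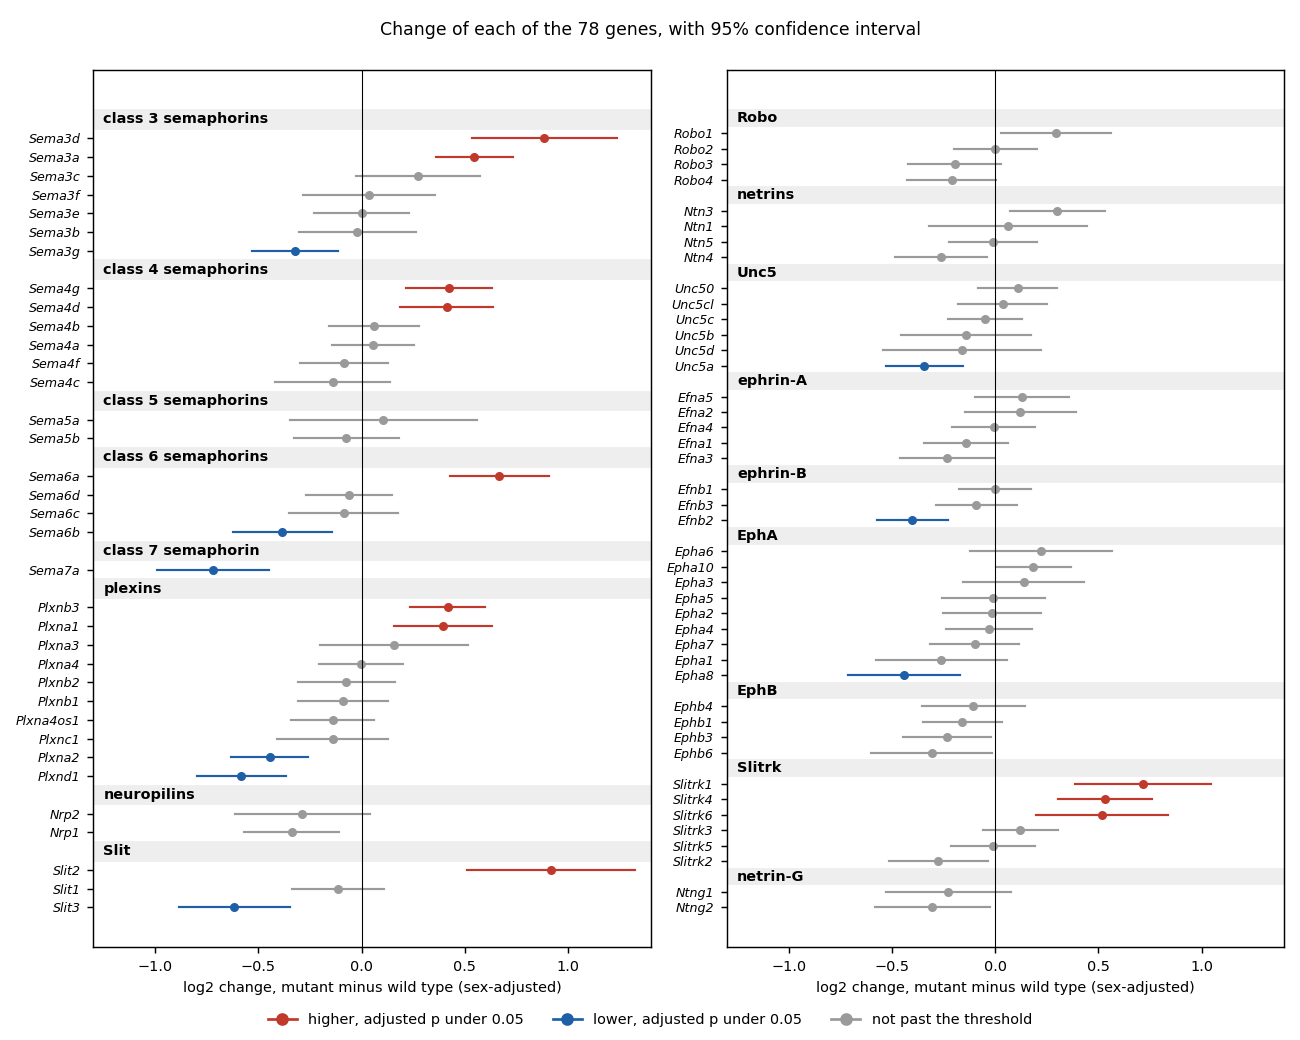
Log2 change, mutant minus wild type, of each of the 78 guidance genes (horizontal axis, adjusted for sex), in rows by family, with a line for the 95% confidence interval. Coloured points mark the 11 genes that rose and the 9 that fell, and grey points the other 58. The largest changes on either side are Slit2 (0.91) and Sema7a (-0.72).

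The start regions of 4 of these genes are shown because they belong to ligands and a receptor that passed well above background in either direction, and differ in base composition. Each run is the 250 bases before the RefSeq start site (GRCm38.p6), read 5' to 3' on the gene's strand. They lie at chr5:47982905-47983154 (Slit2, + strand), chr11:35121206-35121455 (Slit3, + strand), chr5:13396534-13396783 (Sema3a, + strand) and chr6:115995006-115995255 (Plxnd1, - strand). Capitals mark the GC box GGGCGG and the TATA box TATAAA on either strand.
Slit2: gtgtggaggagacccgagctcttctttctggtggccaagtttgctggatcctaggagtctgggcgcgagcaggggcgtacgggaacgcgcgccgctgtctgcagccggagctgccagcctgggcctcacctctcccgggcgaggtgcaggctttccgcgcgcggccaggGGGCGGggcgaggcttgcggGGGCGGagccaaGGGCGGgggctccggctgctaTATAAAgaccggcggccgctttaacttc
Slit3: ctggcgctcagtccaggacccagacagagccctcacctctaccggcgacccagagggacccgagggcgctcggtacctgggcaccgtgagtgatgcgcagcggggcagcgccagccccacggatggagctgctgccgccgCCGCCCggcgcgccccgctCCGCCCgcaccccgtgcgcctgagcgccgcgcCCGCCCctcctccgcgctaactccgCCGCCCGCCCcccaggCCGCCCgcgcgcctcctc
Sema3a: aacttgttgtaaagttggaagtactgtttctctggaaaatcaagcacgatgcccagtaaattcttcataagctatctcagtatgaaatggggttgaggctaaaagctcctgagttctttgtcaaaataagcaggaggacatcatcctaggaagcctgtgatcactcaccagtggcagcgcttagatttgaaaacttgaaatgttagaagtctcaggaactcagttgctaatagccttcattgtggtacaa
Plxnd1: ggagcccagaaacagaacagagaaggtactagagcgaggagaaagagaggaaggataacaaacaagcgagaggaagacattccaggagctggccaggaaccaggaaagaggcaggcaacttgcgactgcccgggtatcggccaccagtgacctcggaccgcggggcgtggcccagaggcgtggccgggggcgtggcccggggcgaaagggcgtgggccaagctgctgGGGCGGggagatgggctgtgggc
The Slit2 run holds 3 GC boxes and 1 TATA box, and that of Slit3 holds 6 GC boxes, some of which overlap. That of Plxnd1 holds 1 GC box and that of Sema3a none. GC content was 69.6% for Slit2, 78.8% for Slit3, 64.8% for Plxnd1 and 40.8% for Sema3a.

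RefSeq start regions were found for 67 of the 78 genes, 84 regions in all since some genes have several starts, and for 17 of the 20 genes that passed. GGGCGG was in 58 of the 84 (69.0%), against 32.7% of 32851 regions of 27025 RefSeq genes. That background was not limited to the 18193 genes measured on the array. All 10 regions of the 9 genes that fell held it, and 3 of the 10 regions of 8 genes that rose did (Slit2, Sema4g and 1 of the starts of Sema4d). Median GC content was 66.2% over the regions of the genes that fell and 52.2% over those of the genes that rose. It was 63.8% over all guidance regions and 52.4% over all RefSeq regions. TATAAA was in 2 of the 84 guidance regions and in 12.4% of all regions. The other motifs searched on both strands, none of which contains another, were at 26.2% against 33.8% for CCAAT, 5.95% against 6.02% for CACGTG and 2.38% against 1.55% for TGACGTCA. The split by direction was seen after the calls were known, regions of 1 gene are not independent, and no test was made of it.

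Of 20 semaphorins measured, 5 rose (Sema3a, Sema3d, Sema4d, Sema4g, Sema6a), 3 fell (Sema3g, Sema6b, Sema7a) and 12 did not pass, with a median log2 change of 0.02. Secreted class 3 semaphorins gave 2 of 7 higher and 1 lower, membrane-bound class 4 gave 2 of 6 higher, class 5 none of 2, class 6 1 higher and 1 lower of 4, and the only class 7 member fell. Values below are in the order of the mutants 141, 153, 154 and 191, then the wild-type mice 161, 170, 180 and 200.

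Sema3a, a secreted repellent that acts through neuropilin-1 and A-type plexins and is held in the perineuronal nets of adult brain, read 8.24, 8.39, 8.24 and 8.51 in the mutants and 7.78, 7.96, 7.97 and 7.84 in the wild-type mice. All mutants were above all wild-type mice. The change was log2 0.55 (SE 0.08, 1.46-fold, adjusted p = 0.00231). Averaged over its 3 probe sets, the other 2 of which read near background, it was 0.25 and did not pass (adjusted p = 0.0600). The related Sema3d was 1.85-fold higher (log2 0.88, SE 0.16, adjusted p = 0.00509), with wild-type values of 3.49 to 3.72 and mutant values of 3.95 to 4.71, all near background.

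Sema7a, a lipid-anchored semaphorin that binds plexin-C1 and integrins, fell 1.65-fold. Its values were 8.80, 8.50, 8.92 and 8.69 in mutants and 9.31, 9.68, 9.46 and 9.53 in wild-type mice, 8.73 ± 0.18 against 9.50 ± 0.15 (SD, n = 4 each). The log2 change was -0.72 (SE 0.12, adjusted p = 0.00379) and the groups were clearly apart. Plxnc1, its plexin, was 7.68 ± 0.11 in wild-type mice and 7.58 ± 0.20 in mutants and did not pass (log2 change -0.14, 95% interval -0.41 to 0.13).

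Sema6a, a transmembrane ligand of plexin-A2 and plexin-A4, read 6.15, 6.56, 6.26 and 6.66 in mutants and 5.63, 6.07, 6.06 and 5.95 in wild-type mice. The lowest mutant lay just above the highest wild-type value, and the change was log2 0.67 (SE 0.11, 1.59-fold, adjusted p = 0.00308). Its other 2 probe sets were at -0.14 and -0.06, so their mean with the first was 0.16 and did not pass (adjusted p = 0.181). Without the sex term, leaving out mouse 153, 191 or 161 moved the change to 0.43, 0.40 or 0.39, and it did not pass. Sema6b, a transmembrane relative, fell, from 7.13 ± 0.07 to 6.77 ± 0.17 (SD, n = 4 each; log2 change -0.38, adjusted p = 0.0428), and did not pass when any one of the mice 141, 161, 170, 180, 191 or 200 was left out.

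Sema4d, a ligand of plexin-B1 made by oligodendrocytes, read 7.73, 7.59, 7.79 and 7.84 in mutants and 7.28, 7.60, 7.27 and 7.44 in wild-type mice. Wild-type mouse 170 overlapped with mutant 153. The change was log2 0.41 (SE 0.10, 1.33-fold, adjusted p = 0.0233) and 0.19 averaged over 3 probe sets (adjusted p = 0.127). A second probe set of like brightness (mean 7.26 against 7.57) was at 0.06. Without the sex term the gene did not pass when any one of the mice 141, 154, 161, 180, 191 or 200 was also left out. Sema4g, another membrane-bound class 4 member, rose to a like size, from 5.97 ± 0.14 to 6.44 ± 0.06 (SD, n = 4 each; log2 change 0.42, adjusted p = 0.0148), and its groups did not overlap. Sema3g, a class 3 member known from endothelial cells, was called lower at log2 -0.32 (adjusted p = 0.0488) with values of 4.23 to 4.87 in all 8 mice. Its groups overlapped, it was near background throughout, and without the sex term the change was -0.16 (adjusted p = 0.402).

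The other 12 semaphorins did not pass, with log2 changes from -0.14 (Sema4c) to 0.27 (Sema3c, adjusted p = 0.240). Sema3e, the ligand of plexin-D1, was at 0.00 with a 95% interval of -0.23 to 0.23. Sema3f was at 0.03, Sema6d at -0.06, Sema5b at -0.07 and Sema5a at 0.11, and the interval of Sema5a ran from -0.35 to 0.56. Sema4c is named after its value was seen.

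Plexins gave as many rises as falls. Of 9 plexin genes, Plxna1 and Plxnb3 rose, Plxna2 and Plxnd1 fell, and 5 did not pass. Neither neuropilin passed.

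Plxnd1, the receptor of Sema3e, which marks direct-pathway medium spiny neurons and vessel cells in the striatum, fell 1.50-fold. It read 7.45, 7.57, 7.29 and 7.50 in mutants and 7.91, 8.13, 8.22 and 8.24 in wild-type mice, with every mutant below every wild-type mouse. The log2 change was -0.58 (SE 0.10, adjusted p = 0.00360), while that of Sema3e was 0.00, as given above.

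Plxna2, a receptor of Sema6a and of class 3 semaphorins, read 8.76, 8.67, 8.86 and 8.66 in mutants and 9.21, 9.07, 9.08 and 9.18 in wild-type mice. The mutants were lower without overlap, at log2 -0.45 (SE 0.08, 1.36-fold, adjusted p = 0.00662). All 4 of its probe sets passed in a fit over the single-gene probe sets, at -0.33, -0.51, -0.45 and -0.37.

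Plxnb3, a plexin found mainly in oligodendrocytes, read 8.30, 8.27, 8.44 and 8.25 in mutants and 7.87, 7.87, 7.86 and 7.92 in wild-type mice. The wild-type values were nearly equal, and the rise was log2 0.42 (SE 0.08, 1.33-fold, adjusted p = 0.00886). Plxna1, which pairs with neuropilins and Sema6d, read 6.66, 6.58, 6.82 and 6.70 in mutants and 6.47, 6.23, 6.15 and 6.02 in wild-type mice (log2 change 0.40, SE 0.11, adjusted p = 0.0373). Without mutant 191 it was 0.22 and did not pass (adjusted p = 0.452). Its second probe set, near background, was at -0.19, and the mean of both was 0.10 (adjusted p = 0.510).

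Nrp1, the co-receptor of Sema3a, read 6.79, 6.47, 6.73 and 6.78 in mutants and 7.13, 7.03, 6.94 and 7.02 in wild-type mice. The groups did not overlap, but the change of log2 -0.34 (SE 0.10) missed the threshold at an adjusted p of 0.0584. It passed without the sex term (-0.34, adjusted p = 0.0236) and averaged over its 4 probe sets (-0.48, adjusted p = 0.0314). In addition, 1 of the other probe sets was at -0.49 (adjusted p = 0.00919 over probe sets). With the sex term kept, Nrp1 was at -0.22 without wild-type mouse 161 and at -0.46 without mutant 191, and passed in neither. Nrp2 was at -0.29 (95% interval -0.62 to 0.04). Among plexins that did not pass, Plxna4 was at 0.00 (interval -0.21 to 0.20), Plxnb1 at -0.09 and Plxna3 at 0.16.

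**Figure D2:**
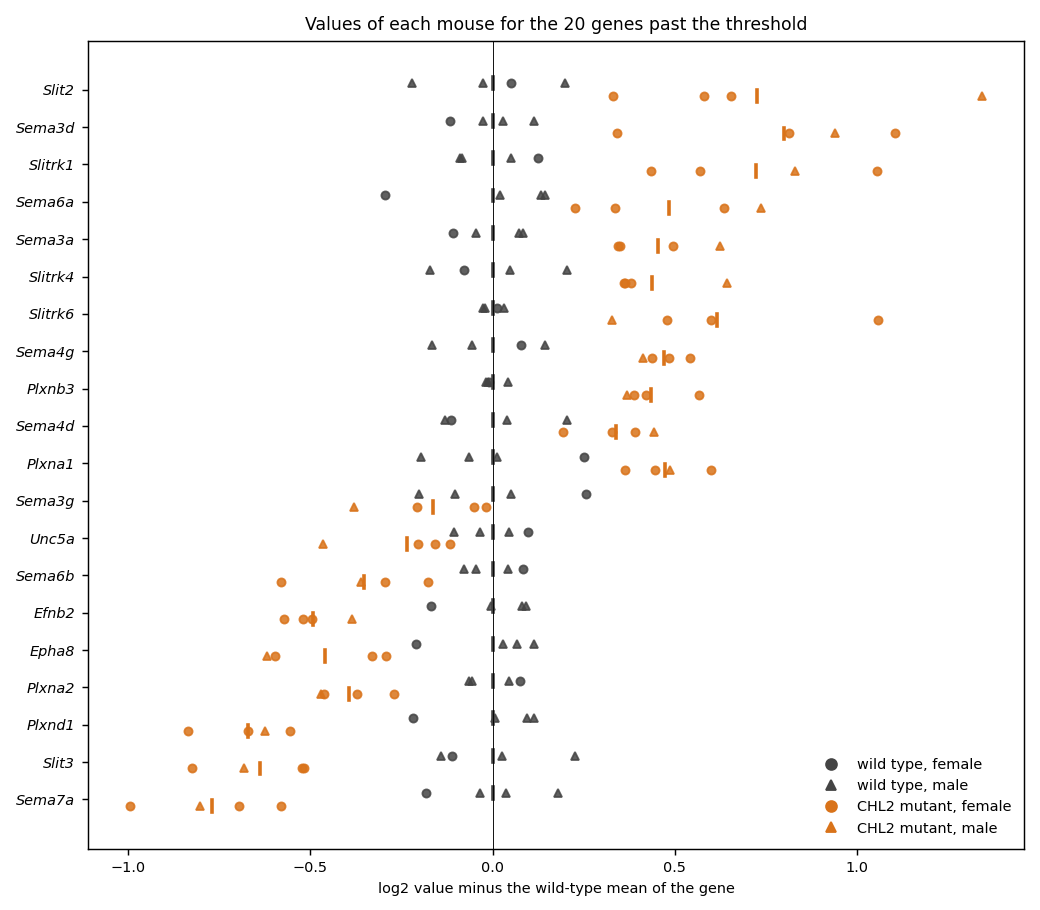
Log2 value of each mouse minus the wild-type mean of the gene (horizontal axis) for the 20 guidance genes that passed, mutants in orange and wild-type mice in grey, with sex as the marker shape and a bar at the mean of each group. In Sema3a and Slit2 the mutants lie above the wild-type mice, and in Sema7a, Plxnd1, Plxna2 and Slit3 below them.

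The Slit genes moved in opposite directions. Slits are secreted repellents that are cut into fragments and bind Robo receptors. Slit2 rose and Slit3 fell, and Slit1 did not pass (log2 change -0.11, 95% interval -0.34 to 0.11). In the runs printed above, both start regions are rich in GC boxes.

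Slit2 read 7.21, 6.96, 7.29 and 7.97 in mutants and 6.68, 6.83, 6.41 and 6.61 in wild-type mice. The mutants were above the wild-type mice, with the male mutant 191 well above the 3 females. The change was log2 0.91 (SE 0.18, 1.89-fold, adjusted p = 0.00913), the largest rise among the 78 genes. Without mouse 191 it was 0.47 (adjusted p = 0.204), and averaged over its 3 probe sets, the others near background, also 0.47 (adjusted p = 0.0149).

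Slit3 read 6.16, 6.17, 5.86 and 6.00 in mutants and 6.57, 6.91, 6.54 and 6.71 in wild-type mice. All mutants were below all wild-type mice, at log2 -0.62 (SE 0.12, 1.53-fold, adjusted p = 0.00840). No Robo receptor passed: Robo1 was at 0.30 (adjusted p = 0.145), Robo2 at 0.00 (95% interval -0.20 to 0.20), and Robo3 and the endothelial Robo4 at -0.20 and -0.21. Robo3 was near background in all mice, and its other probe set, also near background, went the other way at 0.25. In Robo1 the mutant 191 read 8.03 against 7.43 to 7.56 in the other mutants and 7.36 to 7.52 in wild-type mice. Without that mouse the change of Robo1 was 0.02, and without wild-type mouse 161 it was 0.57 and passed (adjusted p = 0.0310).

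Among netrins and their receptors 1 gene passed, Unc5a. Netrins attract axons through Dcc and repel them through Unc5 receptors. Unc5a read 7.77, 7.73, 7.81 and 7.47 in mutants and 8.03, 7.98, 7.82 and 7.90 in wild-type mice, a fall of log2 -0.34 (SE 0.08, 1.27-fold, adjusted p = 0.0228). Mutant 154 and wild-type mouse 180 nearly met, and without the sex term the call was lost. With that term left out, the change was -0.16, -0.20 or -0.22 without mouse 191, 161 or 170. Unc5c was at -0.05 (95% interval -0.23 to 0.13), Unc5b at -0.14 and Unc5d at -0.16. Ntn1 was at 0.06 (interval -0.32 to 0.44), Ntn4 at -0.26 (without the sex term -0.28, adjusted p = 0.0492) and Ntn3, near background in all mice, at 0.30. Ntn1's attractive receptor Dcc, which no symbol rule took in, was 8.65 ± 0.16 in wild-type mice and 8.62 ± 0.16 in mutants (SD, n = 4 each) and did not pass. Its log2 change was 0.12 with the sex term (adjusted p = 0.405), -0.04 without it and -0.08 averaged over its probe sets, so the data give it no direction.

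Of 21 ephrin and Eph receptor genes none rose, Efnb2 and Epha8 fell, and 19 did not pass. The 9.52% that passed is near the 12.4% of all genes. The median log2 change was -0.09, with 16 of the 21 below 0. Efnb2, a membrane-spanning ligand found on arteries and on neurons, read 8.32, 8.29, 8.24 and 8.43 in mutants and 8.65, 8.91, 8.89 and 8.81 in wild-type mice. The groups did not overlap (log2 -0.40, SE 0.08, 1.32-fold, adjusted p = 0.00772), and averaged over its 4 probe sets the change was -0.24 (adjusted p = 0.0673). Of its other probe sets, the brightest (mean 7.22) was at -0.34 and did not pass (adjusted p = 0.119 over probe sets). Those with means of 4.70 and 3.66 were at -0.20 and -0.01. Epha8, a receptor of ephrin-A ligands, read 5.21, 5.25, 4.95 and 4.92 in mutants and 5.33, 5.57, 5.61 and 5.66 in wild-type mice, at log2 -0.44 (SE 0.12, adjusted p = 0.0398). It lay close to background, and the change was -0.20 without mouse 191 (adjusted p = 0.524) and -0.69 without mouse 161 (adjusted p = 0.0263).

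The remaining ephrin and Eph genes had log2 changes between -0.31 (Ephb6, a kinase-dead receptor, named after its value was seen) and 0.22 (Epha6, adjusted p = 0.422). Epha6 rested on single mice: it was at -0.18 without mutant 191 and at 0.62 without wild-type mouse 161, where it passed (adjusted p = 0.0372). Efnb1 was at 0.00 (95% interval -0.18 to 0.17), Efnb3 at -0.09, Efna5 at 0.13, Efna2 at 0.12 and Efna3 at -0.23. Ephb1 was at -0.16, Ephb3 at -0.23 and Ephb4 at -0.11. Epha4, a receptor for both ephrin classes, was at -0.03 (interval -0.24 to 0.18) on its brightest probe set, and Epha5 and Epha7 were at -0.01 and -0.10. Averaged over its 4 probe sets Epha7 was at -0.35 and passed (adjusted p = 0.0171). Epha4 and Epha7 each had another probe set that passed over the probe sets, at -0.54 (adjusted p = 0.0447) and -0.61 (adjusted p = 0.0111). With Nrp1 these were the 3 genes not called on the chosen probe set but called on another. In that fit 21 of 167 guidance probe sets passed (12.6%), against 8.04% of all 34945.

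Slitrk genes, which encode adhesion proteins of the synapse with Slit-like repeats and bind receptor phosphatases across the cleft, gave 3 rises of 6 and no fall. Slitrk2 was at -0.28 and did not pass, but was called lower without the sex term (-0.30, adjusted p = 0.0477). Slitrk1 read 9.01, 8.88, 9.50 and 9.27 in mutants and 8.57, 8.35, 8.49 and 8.36 in wild-type mice (log2 0.72, SE 0.15, 1.64-fold, adjusted p = 0.0109). Slitrk4 read 8.58, 8.60, 8.58 and 8.86 against 8.14, 8.04, 8.42 and 8.26 (log2 0.53, SE 0.10, 1.44-fold, adjusted p = 0.00790). In both genes all mutants were above all wild-type mice. Slitrk6, near background in all mice, was at 0.52 (adjusted p = 0.0421) and at 0.33 without mouse 161 (adjusted p = 0.426). Ntng1 and Ntng2, membrane-anchored netrin-G genes, were at -0.23 and -0.31 and did not pass, and neither did Unc5cl, Unc50 or Plxna4os1.

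By role, 6 of 35 ligands rose and 5 fell, and 2 of 32 receptors rose and 4 fell. That is 31.4% of the ligands and 18.8% of the receptors past the threshold, against 12.4% of all genes and 18.1% of those with a value above 5, so the receptors stood near the background. Log2 changes lay below 0 in 24 of 32 receptors and in 8873 of all 18193 genes. A list of 23 ligand and receptor pairs had 22 with both genes measured, Ephb2 being not analysed here. Both genes passed in 1 pair, Sema6a up and Plxna2 down, 1 gene passed in 10 pairs and none in 11. That pair rests on 1 Sema6a probe set: averaged over its probe sets Sema6a was at 0.16 and did not pass (adjusted p = 0.181). Sema3a rose while Nrp1 missed the threshold and Plxna4 was at 0.00. Sema4d rose with Plxnb1 at -0.09, and Slit2 rose with Robo2 at 0.00. Plxnd1 and Unc5a fell with their ligands Sema3e and Ntn1 at 0.00 and 0.06, and Efnb2 fell with Ephb4 at -0.11.

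**Figure D3:**
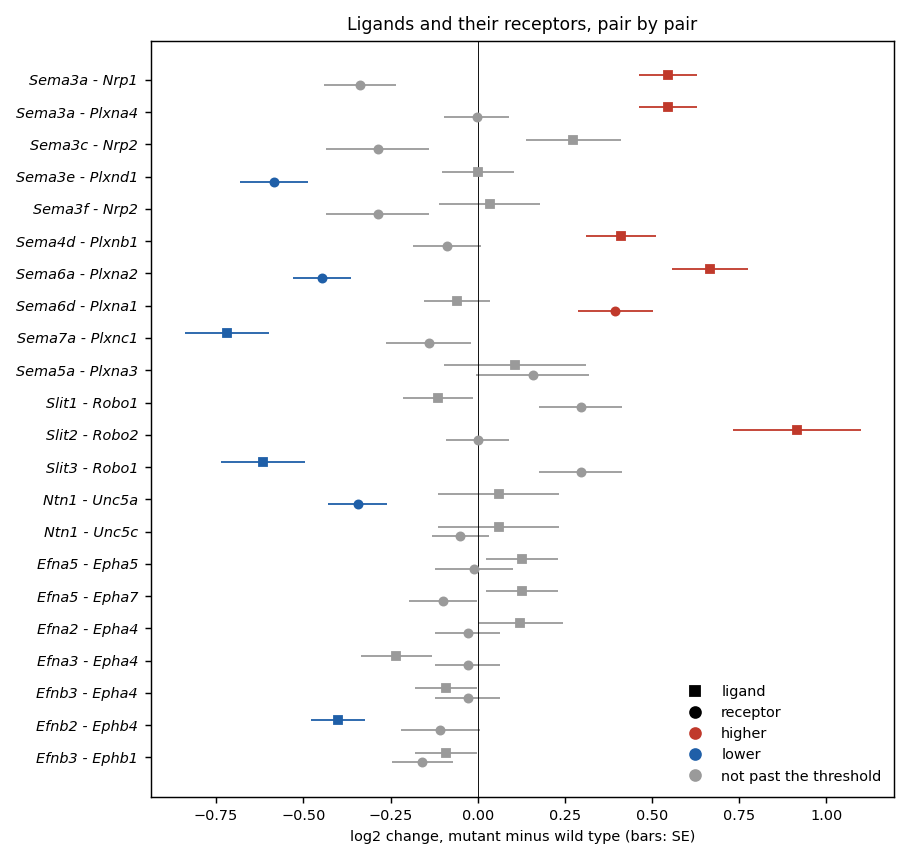
Log2 change, mutant minus wild type (horizontal axis), of the ligand (squares) and of its receptor (circles) in each of the 22 pairs with both genes measured, 1 row a pair, with bars of 1 SE and colour for genes that passed. On the brightest probe set of each gene, Sema6a with Plxna2 is the pair in which both genes passed the threshold, the ligand at 0.67 and the receptor at -0.45.

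Genes that act beside or below the guidance receptors were taken from a list of 78, of which 72 were measured. Of these 9 rose and 7 fell (22.2%), with a median log2 change of 0.06. In all genes the share was 12.4%, and in those with a value above 5, as 71 of the 72 had, 18.1%. Ngef, which encodes ephexin-1, a binding partner of EphA receptors, read 10.7, 10.8, 10.6 and 10.7 in mutants and 11.4, 11.5, 11.6 and 11.6 in wild-type mice (log2 -0.82, SE 0.09, 1.77-fold, adjusted p = 0.000269). Chn1, a Rac inhibitor below EphA4, fell by 0.71 (adjusted p = 0.00829), Sipa1l1, a Rap inhibitor of spines, by 0.51 (adjusted p = 0.00206) and Flrt3, a ligand of Unc5 receptors, by 0.63 (adjusted p = 0.000909) on the log2 scale. Every mutant value of these 4 genes was below every wild-type value.

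Among the signalling genes that rose, Dpysl3, a collapsin response mediator protein downstream of Sema3a, was higher by log2 0.68 (SE 0.11, 1.60-fold, adjusted p = 0.00263). Enah, an actin regulator in growth cones, was at 0.49 (adjusted p = 0.00457) and Grb10, an adaptor of receptor kinases, at 0.35 (adjusted p = 0.0123). Averaged over its probe sets Grb10 was at 0.04 and did not pass (adjusted p = 0.826). Without mutant 191 Dpysl3 was at 0.45 and did not pass (adjusted p = 0.0760). Rnd1, whose product binds plexins, was called higher (adjusted p = 0.00543), but 7 of its 8 values were near background. With values held at a floor of 5 its log2 change was 0.04 and did not pass (adjusted p = 0.774). Without mutant 191 the list gave 0 higher and 3 lower, where all genes gave 292 and 410 (3.86%). Without wild-type mouse 161 the list gave 2 and 4, where all genes gave 356 and 508 (4.75%).

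Of the marker lists for cells of the tissue, those of medium spiny neurons, oligodendrocyte precursors and vessel cells were apart between the groups, and the other glial, cortical and choroid plexus lists overlapped. Medium spiny neuron markers were lower in 14 of 16, with a median log2 change of -1.02, and their mean log2 level ran from 0.46 to 0.58 in wild-type mice and from -0.66 to -0.45 in mutants around the mean of the 8 mice. All 3 indirect-pathway markers and 4 of 6 direct-pathway markers fell, among them Penk at -1.63 and Drd2 at -1.42. This stands beside Plxnd1, Plxna2, Sema7a, Slit3, Ngef and Chn1, and its part in their change was not tested. Oligodendrocyte markers overlapped between the groups, -0.06 to 0.18 in wild-type mice and -0.09 to 0.01 in mutants, with 1 of 9 higher (Opalin) and 1 lower (Mobp). Markers of oligodendrocyte precursors were apart, -0.11 to -0.01 against 0.04 to 0.09, with 2 of 6 higher (Lhfpl3, Olig1). These stand beside the rises of Plxnb3, Sema4d and Sema6a, and their part was not tested.

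Endothelial and mural markers were just apart, at -0.02 to 0.22 in wild-type mice and -0.19 to -0.02 in mutants, with 1 of 12 lower (Cdh5, near background) and a median log2 change of -0.25. They stand beside Plxnd1, Efnb2, Nrp1, Sema3g and Robo4, and their part was not tested. Astrocyte markers overlapped, with 2 of 10 higher (Gfap, whose groups overlapped, and S100b) and a median log2 change of -0.08. Below 0 lay 6 of the 10. In 3 of these every mutant was below every wild-type mouse, though none passed: Sox9 at -0.31, Fgfr3 at -0.23 and Slc1a2 at -0.22. None of 10 microglial markers passed. Cortical markers (7 genes, 1 lower) and those of choroid plexus and ependyma (7 genes, 1 lower) varied widely within both groups, from -0.72 to 0.67 and from -0.74 to 1.05 in mutants, and overlapped.

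**Figure D4:**
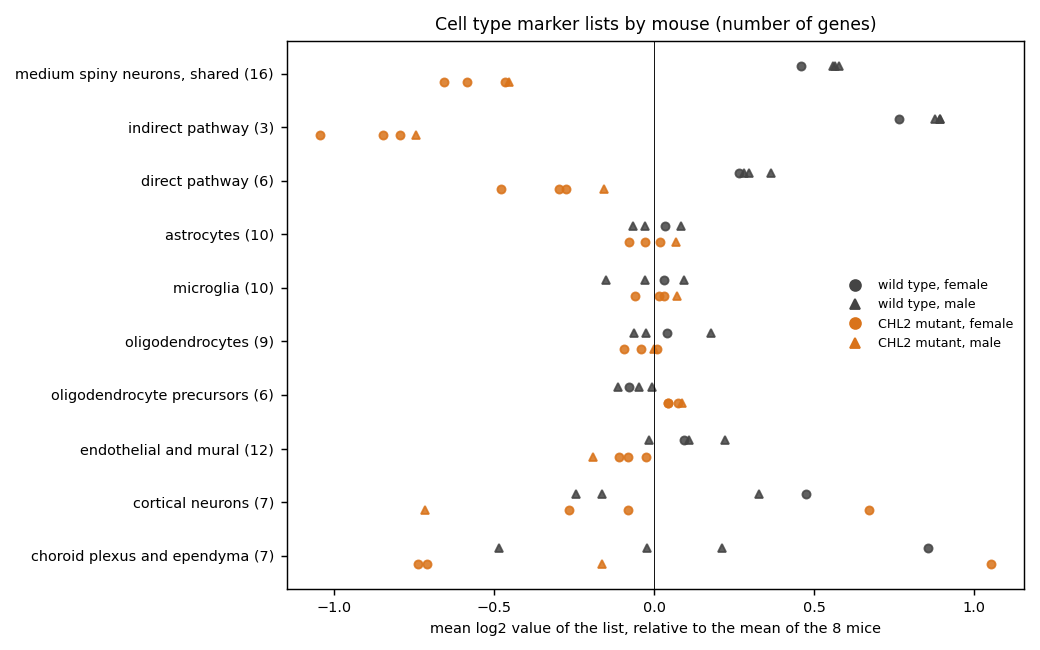
Mean log2 value of each cell type marker list in each mouse, relative to the mean of the 8 mice (horizontal axis), with mutants in orange, wild-type mice in grey and sex as the marker shape. Medium spiny neuron lists are apart, precursor and endothelial lists are apart by less, and the other glial lists overlap.

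Sex was checked for the same genes. No guidance gene differed between females and males after adjustment (0.0275% of all genes did), though 12 did at an unadjusted p under 0.05. No guidance gene had a genotype change that differed between the sexes after adjustment (0.0055% of all genes did), and 8 did at an unadjusted p under 0.05, Slit2, Epha8, Robo1 and Epha6 among them. Those tests rest on 1 female wild-type mouse and 1 male mutant. The share of all genes at that unadjusted level was not counted, so the 12 and the 8 are not read as an excess. The call was kept by 9 of the 20 without wild-type mouse 161, the comparison of mutant 191 with the 3 wild-type males: Sema3a, Sema7a, Epha8, Plxnd1, Plxna1, Slit3, Slit2, Slitrk1 and Slitrk4. Without mutant 191, the comparison of 3 mutant females with mouse 161, only Sema6a kept it (adjusted p = 0.0482). None kept it in both. Without the sex term 11 guidance genes rose and 10 fell (26.9%, against 15.2% of all genes), of which 18 were among the 20.

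**Figure D5:**
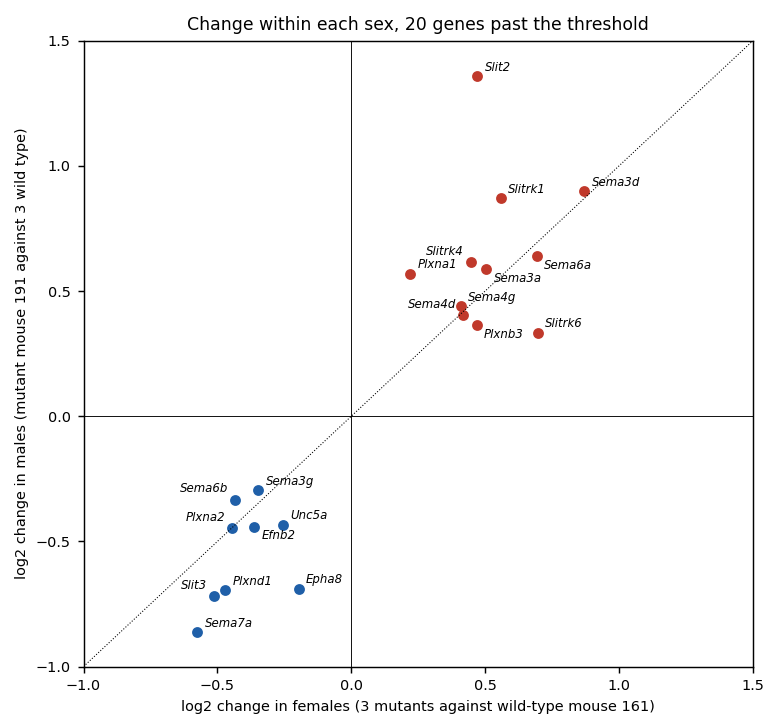
Log2 change of the 20 guidance genes that passed, in females (horizontal axis, 3 mutants against wild-type mouse 161) and in males (vertical axis, mutant 191 against 3 wild-type mice), with a dotted line where both are equal. The sex-adjusted change that chose the genes is the mean of both values, so their like signs are largely fixed by that choice. Slit2 lies farthest above the line, at 0.47 in females and 1.36 in males.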

How the data were processed

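Striatal RNA of 8 mice was measured, 1 array each. The authors deposited log2 values per probe set, made with RMA in affy per the submitters' processing notes; no genome build is stated in them. RMA background-corrects, quantile-normalizes and summarizes probes, which narrows small changes near background, and the number of arrays limits the precision.

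Of 45101 probe sets, 64 are controls and 34945 name 1 gene in the platform annotation. Values were fitted with limma 3.58.1 in R 4.3.3 (lmFit, eBayes; genotype and sex; 5 residual and 5.38 prior degrees of freedom), with p-values adjusted by Benjamini-Hochberg over all 18193 genes and a threshold of 0.05. A fold is 2 to the power of the size of the log2 change. The code was tested on simulated data.

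Named are all guidance genes past the threshold, the lowest adjusted p in each family, genes of the listed pairs, outliers, and of the signalling list the 4 lowest adjusted p each way and Dcc; Ephb6, Ntn4, Ntng1, Robo3, Robo4, Sema4c, Slitrk2, Unc5b and Unc5d were named after their values were seen. The members, lists and motifs were chosen with earlier results of these data known. Alternatives changed the sex term, prior, normalization, filter, probe set rule, floor, array weights, threshold, members and mice.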

Additional observations from a re-analysis of the deposited data

Results flagged for a closer look

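In 10 of the 156 groups of 4 values (78 genes, 2 genotypes), 1 mouse lay far from the other 3 by Dixon's ratio, which chance gives in about 1 group in 20. Mutant 191, the only male mutant, was high in Epha6 (5.14, the others 4.51 to 4.59) and in Slitrk4 (8.86, the others 8.58 to 8.60), and low in Plxnb1 (7.86, the others 8.12 to 8.16). Mutant 153 was low in Unc50 (9.67, the others 9.77 to 9.79). Wild-type mouse 161, the only female of its group, was high in Efna1 (4.83, the others 4.61 to 4.64) and low in Ntn3 (3.44, the others 3.65 to 3.68), both near background. Wild-type mouse 200 was low in Epha5 (7.02, the others 7.35 to 7.41) and high in Plxnb3 (7.92, the others 7.86 to 7.87) and Plxna4 (6.91, the others 6.73 to 6.75). Wild-type mouse 180 was low in Slit1 (6.02, the others 6.19 to 6.23). Of these genes, Slitrk4 and Plxnb3 passed the threshold between the genotypes.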

How the results depend on the processing

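Of the 20 guidance genes past the threshold, 13 kept the call in every setting that left out no mouse and gave a value for the gene. Among these 13, Sema3d and Slitrk6 had values in only 6 of the 8 such settings, and Epha8 in 7. None of the 20 kept the call in all 24 settings. The shared calls numbered 18 without the sex term, 20 under median centring, 19 each with a trended and robust prior, array weights or renewed quantile normalization, 17 with values held at a floor of 5 and 15 with a gene's probe sets averaged. No call turned its direction. The floor gave no value for genes with all 8 values under it, and the filter gave none for the dimmer genes it left out. With averaged probe sets 7 guidance genes were higher and 10 lower (21.8%, against 10.4% of all genes). At an adjusted p under 0.01, 6 guidance genes were higher and 5 lower, and 450 of all genes were higher and 579 lower. With each mouse left out in turn, guidance genes ranged from 1 to 12 higher and from 0 to 8 lower, and all genes from 292 to 1145 higher and from 410 to 1113 lower; without the sex term as well, from 8 to 11, 7 to 11, 891 to 1206 and 1041 to 1291. The lowest counts came without mutant 191 and the next lowest without wild-type mouse 161. Both settings rest on a single mouse against 3 of its own sex. Without wild-type mouse 200, 9 guidance genes were higher and 5 lower (17.9%, against 9.83% of all genes). In an alternative chosen after seeing the data, the Slitrk, netrin-G, Unc5cl, Unc50 and Plxna4os1 genes were left out. Of the 67 others, 8 were higher and 9 lower (25.4%, against 12.4% of all genes). No guidance gene passed for sex. No paired analysis was possible because the mouse numbers are not shared between the groups. Signal near background limits Sema3d, Sema3g, Slitrk6 and Rnd1.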
